A study of Homo sapiens with 2 samples.

Results

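HCC827 is an established line of lung adenocarcinoma known for its amplified EGFR gene, and the barcodes described here are the HCC827-like barcodes of a mixture of 5 lines, ranked by how much of their open chromatin signal came from the EGFR region. A549, H838, H1975, H2228 and HCC827 were grown separately in RPMI medium with fetal calf serum, with no treatment given in the labels, frozen, and mixed in equal proportions before 1 capture. The RNA library and the ATAC library of the 80% fraction of that capture were read in the same droplets, so each of the 3298 barcodes carries both profiles. A barcode had to hold 3000 to 40000 gene UMIs (unique molecular identifiers) with no more than 20% of them mitochondrial, and 5000 or more counts in peaks, which 2103 barcodes did. It then needed at least 2 UMIs over GRIA4, LINC01980, LINC01456 and PMCH, and more than 3 times as many as over 8 genes of the other lines (RBFOX3, AKR1B10, S100A9, CST1, LINC01194, SLC30A8, DHRS2 and NALCN-AS1). This gave 220 barcodes. They were chosen by these UMIs and ranked on the share of their peak counts in 159 peaks of a stretch of chromosome 7 around EGFR, called the window here, whose peaks span chr7:54525361-55699738 (GRCh38). The ranking gave 3 groups, the top group of 73, the middle group of 74 and the bottom group of 73 barcodes. Each line was 1 culture and each library was made once, so no test or p-value was made from barcodes. Intervals are 95% intervals that cover counting error only, and 1.5-fold is the size at which a gene or peak is called higher or lower.

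EGFR encodes the epidermal growth factor receptor, a receptor tyrosine kinase that signals through RAS and the MAPK cascade when a ligand such as EGF, amphiregulin or epiregulin binds it. Amplification raises the number of copies of the gene and of its neighbours on the same stretch of DNA, and copies can lie within the chromosome or outside it. Cells with a strong MAPK signal transcribe genes that damp it, among them the dual-specificity phosphatases, the Sprouty and SPRED proteins and ERRFI1, which binds and inhibits the receptor. In ATAC, a transposase cuts open DNA, so the counts of a region follow both its openness and its number of copies, and these 2 cannot be told apart here.

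The label was compared with genes that the rule did not use. These genes were listed with earlier results of these data known, so their direction is no independent support for the label. All 9 HCC827-like genes that the rule did not use were higher in the 220 barcodes than in the 1883 other passing barcodes, by 2.55- to 7.49-fold. SFTA3, a lung-lineage gene, stood at 159 CPM (a gene's UMIs per 1000000 UMIs of the same barcodes) against 23.3, and CDKN2A, a cell cycle inhibitor, at 312 against 46.4. EGFR RNA stood at 7645 against 1105 CPM. The 25 unused genes of the other lines summed to 1445 CPM in the 220 barcodes and 7909 CPM in the others, and all 25 were lower. Of 11 genes of immune, endothelial, stromal and red cells, CD3E, DCN and HBB had no UMI in the 220 barcodes, where a count of 0 allows up to 3 UMIs, or 0.896 CPM. The 11 genes summed to 12.8 CPM, against 47.9 in the others, and CD79A, KDR, COL3A1, VWF and LYZ, with 10, 7, 5, 2 and 1 UMIs, were the 5 that were higher. The 3 barcodes with the lowest window share go against the label: their shares were 0.0524%, 0.0713% and 0.0720%, near the median of 0.0640% of the other passing barcodes, and they held 4, 2 and 3 EGFR UMIs. The next lowest share was 0.311%. Values without these 3 barcodes are given beside the results they touch.

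The window holds the starts of 14 gene entries, and 4 of them had at least 200 UMIs over the top and bottom groups: EGFR, SEC61G, LANCL2 and VOPP1. Peaks at the starts of these genes were among those on which the barcodes were ranked, so their promoter sequence is shown here. RefSeq (GRCh38.p14) entries wholly inside a called peak were found for 3 of the 4 genes. Each line gives the 250 bases before the start, 5′ to 3′ on the gene's strand, and capitals mark the GC box, GGGCGG or CCGCCC on either strand, the core to which SP1-type factors are known to bind.
EGFR, chr7:55018767-55019016, plus strand: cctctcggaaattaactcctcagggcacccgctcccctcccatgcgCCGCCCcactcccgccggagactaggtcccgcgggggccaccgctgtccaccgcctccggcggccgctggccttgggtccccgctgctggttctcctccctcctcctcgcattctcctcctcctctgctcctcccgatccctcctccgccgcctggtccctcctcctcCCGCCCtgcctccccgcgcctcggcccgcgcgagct
SEC61G, chr7:54759212-54759461, minus strand: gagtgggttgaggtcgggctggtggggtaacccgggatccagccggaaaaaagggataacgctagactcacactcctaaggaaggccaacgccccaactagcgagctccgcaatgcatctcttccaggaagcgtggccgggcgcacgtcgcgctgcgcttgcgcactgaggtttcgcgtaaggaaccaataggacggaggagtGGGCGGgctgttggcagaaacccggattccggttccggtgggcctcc
VOPP1, chr7:55572503-55572752, minus strand: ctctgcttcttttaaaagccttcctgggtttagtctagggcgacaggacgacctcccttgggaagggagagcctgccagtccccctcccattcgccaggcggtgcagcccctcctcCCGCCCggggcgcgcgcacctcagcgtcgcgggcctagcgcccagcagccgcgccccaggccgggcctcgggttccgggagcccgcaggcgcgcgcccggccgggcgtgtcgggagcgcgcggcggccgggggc
EGFR has 2 GC boxes in this stretch, SEC61G 1 and VOPP1 1. Of 35116 RefSeq promoters of the same length, 42.6% hold at least 1 and 24.3% at least 2, so the motif is common. The TATA box, TATAAA or TTTATA, is in none of the 3 stretches and in 10.7% of all promoters. The G and C content was 73.6% for EGFR, 62.4% for SEC61G and 75.2% for VOPP1, against a median of 58% over all promoters. No motif of either kind overlapped another in these stretches.

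The window shares by which the barcodes were ranked are a description of the groups. In the bottom group the share ran from 0.0524% to 1.16% with a median of 0.965%. In the middle group it ran from 1.16% to 1.42% with a median of 1.28%. In the top group it ran from 1.43% to 3.66% with a median of 1.61%. The edges of the groups fall in a dense part of the ranking: the lowest barcode of the top group stood at 1.43% and the highest of the middle group at 1.42%, and the lowest of the middle group and the highest of the bottom group both at 1.16%. The share of the 220 barcodes had an SD of 0.426 percentage points, against 0.135 expected from counting fragments alone. A spread beyond counting was not particular to the window or to these barcodes. Their share of peak counts on 7q, the long arm of chromosome 7, had an SD of 0.686 against 0.214. The window share of barcodes chosen alike on marker pairs of each other line also varied beyond counting, with 0.0822 against 0.0273 for S100A9 and CST1. The barcodes were also ranked on the 80 odd-numbered window peaks alone and read on the 79 even-numbered ones. Both sets are peaks of the rule and alternate along the same stretch, so this reading is a description and no independent support. The even-numbered peaks were then 1.86-fold higher (interval 1.79 to 1.94) in the top group than in the bottom group. Across 220 barcodes the 2 sets of peaks had a Pearson r of 0.795 and a Spearman rho of 0.684, with each barcode's total shared by both. Among the 208 barcodes of share at least 0.5% these were 0.722 and 0.627.

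**Figure D1:**
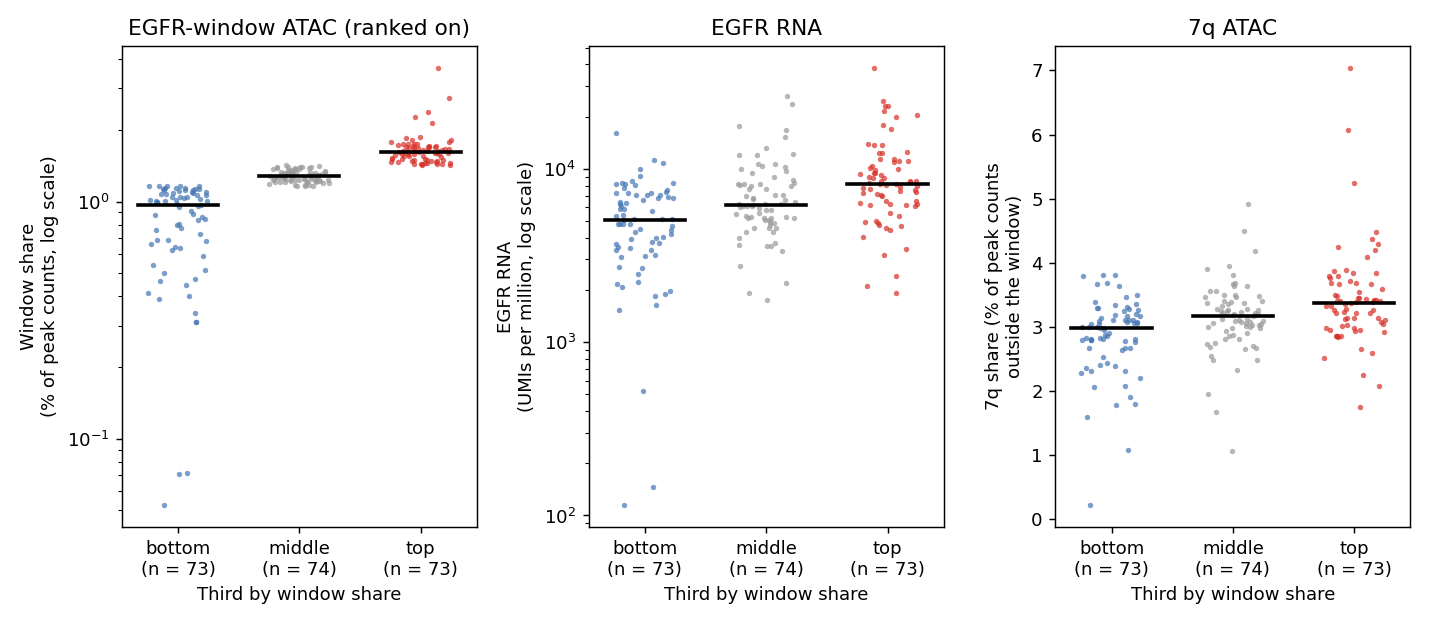
Each point is 1 barcode, placed by its group by window share (73, 74 and 73 barcodes), and the black line is the median. The left panel shows the share the barcodes were ranked on, the middle panel EGFR RNA in CPM (both log axes), and the right panel the share of peak counts on 7q. Medians of EGFR RNA are 5057, 6217 and 8200 CPM from bottom to top, the 3 ranges overlap, and the 3 barcodes of lowest share are also the lowest in EGFR RNA.

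EGFR RNA was higher where the window share was higher. The top group held 10279 EGFR UMIs, or 9760 CPM, the middle group 9395 UMIs, or 7872 CPM, and the bottom group 5927 UMIs, or 5377 CPM. The top group was 1.82-fold above the bottom group (interval 1.76 to 1.87, log2 0.86). Single barcodes ran from 1929 to 38251 CPM with a median of 8200 in the top group, from 1754 to 26354 with a median of 6217 in the middle group, and from 114 to 16070 with a median of 5057 in the bottom group. The groups therefore overlap widely, and some bottom-group barcodes exceed the top-group median. EGFR had at least 1 UMI in all 220 barcodes, and no barcode held more than 9.43% of the EGFR UMIs of its group. Without the 3 barcodes that go against the label, log2 was 0.81, and without the 12 barcodes of share under 0.5% it was 0.69. With at most 10% mitochondrial UMIs, which left 23 barcodes in each group, it was 1.48.

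**Figure D2:**
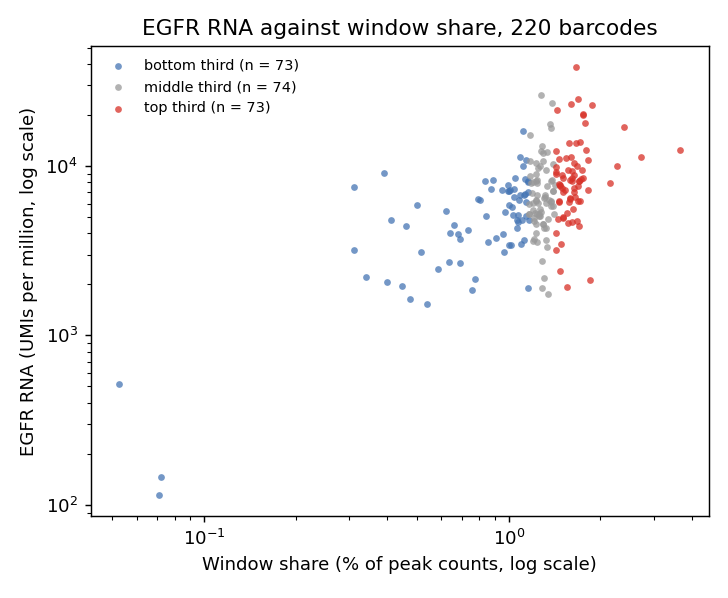
Each of the 220 points is 1 barcode, with the share of its peak counts in the window on the x axis and EGFR RNA in CPM on the y axis, both on log scales, coloured by group. EGFR RNA is higher at higher share with wide scatter, and 3 barcodes stand alone at the lower left.

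Across barcodes, log2 share and log2 EGFR CPM had a Pearson r of 0.666 and a Spearman rho of 0.471 (n = 220 barcodes of 1 capture, with both values divided by the barcode's own totals). Without the 3 lowest barcodes they were 0.464 and 0.448 (n = 217), and among the 208 barcodes of share at least 0.5% they were 0.446 and 0.423. Pearson r thus rests in part on those 3 barcodes, and the rank correlation moved little. The share had a rho of -0.0739 with total peak counts and -0.0283 with total UMIs.

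The way the share is counted bears on this value. When each peak was counted at most once per barcode, the EGFR log2 ratio was 0.34. That form of the share had a rho of -0.769 with total peak counts, and its top and bottom groups had median totals of 8798 and 31853 peak counts. By the share of the rule the medians were 14640 and 15748. The 2 forms had 42 barcodes in common in the top group and 42 in the bottom group, and 19 barcodes were in opposite groups.

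The other 3 measured genes of the window were higher in the top group as well. SEC61G, a subunit of the channel that moves proteins into the endoplasmic reticulum, stood at 709 CPM in the top, 535 in the middle and 438 in the bottom group, a ratio of 1.62 (1.44 to 1.82). LANCL2, a LanC-like protein, stood at 820, 749 and 494 CPM, a ratio of 1.66 (1.49 to 1.85). VOPP1, a protein of vesicles, stood at 2026, 1712 and 1321 CPM, a ratio of 1.53 (1.43 to 1.64). Barcode medians followed the same order for SEC61G (576, 492 and 458 CPM) and VOPP1 (1796, 1702 and 1377 CPM). For LANCL2 the top and middle medians were 697 and 722 CPM, and the bottom median was 484 CPM. All 4 measured window genes were at least 1.5-fold higher in RNA, where 0.743% of the 2287 other genes with at least 200 UMIs were. With every barcode given the same weight, EGFR and LANCL2 stayed past 1.5-fold, and SEC61G (log2 0.57) and VOPP1 (log2 0.51) did not. Of the 4 genes, 3 passed without the 3 barcodes that go against the label, 2 passed without barcodes holding a UMI of the 8 genes of other lines or without those of share under 0.5%, 1 passed when 2 groups were made in place of 3, and 0 passed when each peak was counted at most once. In those settings, as in all 19 that were run, the 4 log2 ratios stayed above 0.

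The remaining 10 window entries had too few UMIs for a call. AC074351.1, listed beside SEC61G, had 95, 40 and 27 UMIs from top to bottom, a ratio of 3.68 (2.38 to 5.88), and 17.9% of its top-group UMIs came from 1 barcode. EGFR-AS1, antisense to EGFR, had 27, 20 and 10 UMIs, a ratio of 2.83 (1.33 to 6.54). Whether counting used strand is not given in the sources used here, and how well EGFR-AS1 reads were told apart from EGFR reads was not tested. ELDR had 4, 2 and 0 UMIs, AC011228.2 had 4, 1 and 1, VSTM2A, VSTM2A-OT1 and AC011228.1 had 1 UMI each in the top group, and 3 further entries had none. In single barcodes EGFR CPM had a rho of 0.217 with VOPP1, 0.20 with LANCL2 and 0.103 with SEC61G (n = 220, sharing the UMI total). MALAT1, a nuclear RNA from another chromosome, had a rho of -0.262 with EGFR.

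EGFR RNA was also higher in the top group of barcodes of the other lines. Barcodes chosen alike on the marker pairs of the other lines were ranked by the same share. The EGFR ratio was 1.88 (1.65 to 2.14) in 477 barcodes chosen on RBFOX3 and AKR1B10, 1.76 (1.58 to 1.96) in 265 chosen on S100A9 and CST1, 4.07 (3.47 to 4.78) in 394 chosen on LINC01194 and SLC30A8, and 1.30 (1.16 to 1.46) in 142 chosen on DHRS2 and NALCN-AS1. Their median window counts were 14, 29, 8 and 28 per barcode, against 204 in the HCC827-like barcodes. Their rank correlations of share with EGFR CPM were 0.115, 0.0849, 0.0891 and 0.0800, against 0.471. Barcode medians of EGFR in their top and bottom groups lay close together, at 340 and 271, 419 and 400, 127 and 102, and 753 and 652 CPM. Restricted to barcodes of share up to 0.2%, the ratios were 1.69, 1.18, 2.00 and 0.997. The part of HCC827 RNA or DNA in these droplets was not tested.

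Peaks of the window away from gene starts stood at 12453, 8881 and 5255 CPM of peaks (counts per 1000000 peak counts outside the window), from top to bottom, and the 13 peaks near a gene start at 4585, 4032 and 2406. These counts entered the ranking and are given as a description. The ratios were 2.37 (2.28 to 2.46) away from starts and 1.91 (1.80 to 2.02) near starts. Because the groups were ranked on these counts, the 2 ratios cannot be set against the RNA ratio of EGFR. The peak over the EGFR start (chr7:55018589-55019468), which contains the promoter bases printed above, stood at 713, 612 and 347 CPM in the top, middle and bottom group. The peak over the SEC61G start (chr7:54758809-54759711) stood at 679, 580 and 356 CPM, and the one over the VOPP1 start (chr7:55572092-55572918) at 663, 577 and 371. The window peak with the most counts lies 146 bases from the LANCL2 start (chr7:55365594-55366545) and stood at 1280, 1202 and 737 CPM. Next came a peak downstream of the EGFR start (chr7:55132524-55133421), at 1120, 775 and 497 CPM and 11.5-fold higher in the 220 barcodes than in the others. A peak 71584 bases from the SEC61G start (chr7:54831558-54832291) stood at 479, 270 and 140 CPM, the widest spread between groups among the 12 window peaks of most counts, with a ratio of 3.42 (2.76 to 4.27).

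**Figure D3:**
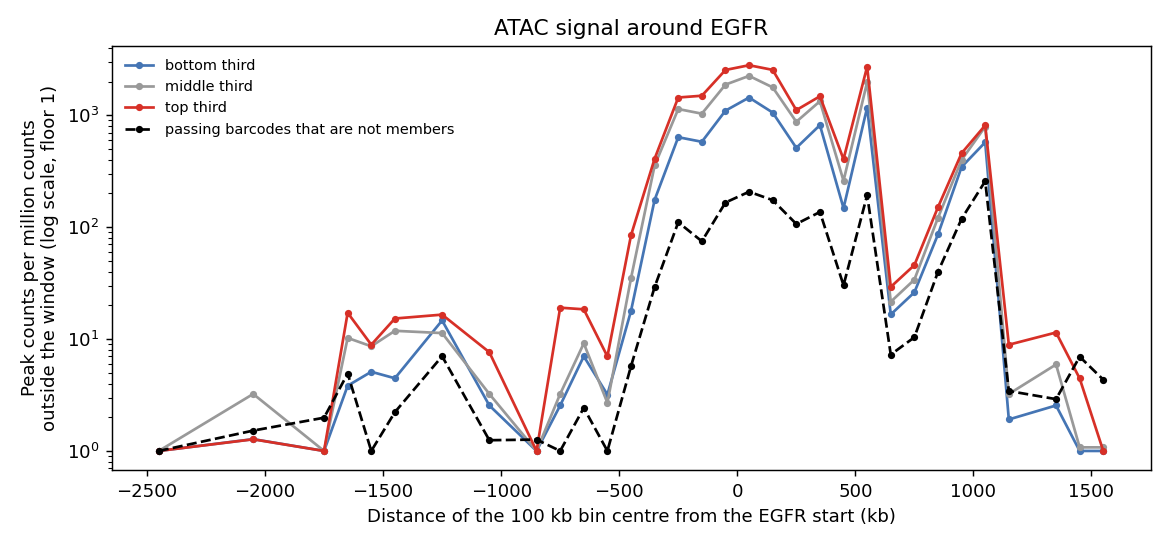
Peak CPM (of counts outside the window) are plotted on a log axis in 100 kb bins by distance from the EGFR start, for the 3 groups and for the 1883 passing barcodes that are not members (dashed); values under 1 are drawn at 1 and bins without a peak are left out. From 400 kb before to 600 kb after the EGFR start all 3 groups run well above the other barcodes. The bin at 600 kb, with 4 peaks, falls to 29.2, 21.5 and 16.6, and to 7.26 in the other barcodes.

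Counts fell steeply past the VOPP1 start, in the other barcodes as well. The 100 kb bin starting 500 kb after the EGFR start held 2719, 1973 and 1171 CPM in the top, middle and bottom group, against 193 in the other barcodes. The bin starting at 600 kb held 29.2, 21.5 and 16.6 against 7.26. These bins hold 18 and 4 peaks, and the 220 barcodes stood 10.1- and 3.09-fold above the others in them. Beyond the window, peaks of the next 0.5 Mb stood at 1475, 1347 and 1032 CPM against 430 in the others. They were 1.43-fold higher (1.31 to 1.57) in the top than in the bottom group, and the 220 barcodes together were 10.1-fold above the others in the window. In RNA, 6 genes of that stretch had ratios above 1: ZNF713 1.56 (1.16 to 2.12), NIPSNAP2 1.40 (1.12 to 1.74), PSPH 1.35 (1.07 to 1.71), CHCHD2 1.29 (1.13 to 1.48), SUMF2 1.20 (1.03 to 1.41) and CCT6A 1.11 (0.97 to 1.27). ZNF713 had 187 UMIs over the top and bottom groups, under the minimum for a call. All 7 measured genes of 7p from 50 Mb on, outside the window, were above 0 on the log2 scale, as were 1043 of all 2287 genes. The median of the 7 was 0.31, against -0.02 over all 2287.

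The long arm of chromosome 7 was higher in the top group too. Peaks on 7q stood at 34188 CPM in the top, 31190 in the middle and 28731 in the bottom group, a ratio of 1.19 (1.17 to 1.21). All 37 bins of 1 Mb on 7q with at least 1000 counts had a log2 ratio above 0. On 7p below 50 Mb the values were 21660, 21786 and 23564, a ratio of 0.92 (0.90 to 0.94), and 27 of 31 bins lay below 0. Chromosome 7 as a whole, without the window, had a log2 ratio of 0.11, and the other chromosomes had log2 ratios from -0.16 to 0.10. Arms of the other chromosomes were not measured apart, so no like value stands beside 7q. Single barcodes had 7q shares from 1.76% to 7.04% with a median of 3.37% in the top group and from 0.221% to 3.82% with a median of 2.99% in the bottom group, so the groups overlap. The barcode at 0.221% is 1 of the 3 that go against the label. The deepest barcode of the top group held 10.6% of that group's peak counts. Across 220 barcodes window share and 7q share had a Pearson r of 0.384 and a rho of 0.372, which share the barcode's total, and 0.310 and 0.346 among the 208 of share at least 0.5%. The 7p share had a rho of -0.0511 with the window share, and the 7q share a rho of 0.0598 with EGFR CPM. With each peak counted at most once the 7q log2 ratio was 0.11 in place of 0.25, and without the 3 barcodes that go against the label it was 0.22.

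**Figure D4:**
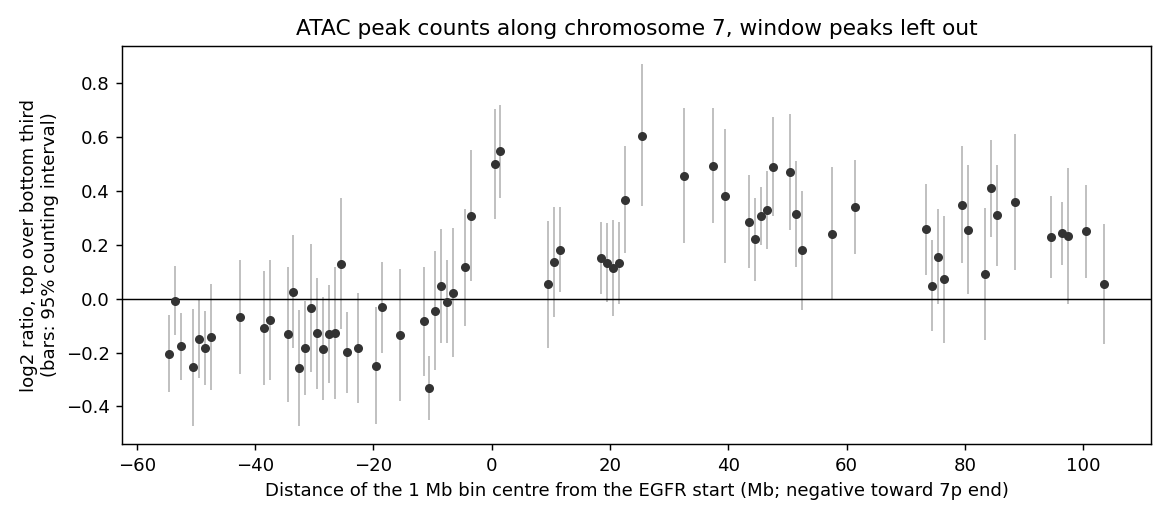
Each point is a 1 Mb bin of chromosome 7 with at least 1000 peak counts over the top and bottom groups, window peaks left out, by the distance of its centre from the EGFR start in Mb; the y axis is the log2 ratio of top over bottom group and bars are 95% counting intervals. Bins on 7p below 50 Mb mostly lie below 0 (27 of 31), the bins next to the window lie highest on 7p, and all 37 bins on 7q lie above 0.

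In RNA the difference on 7q was smaller. Its genes summed to 29387 CPM in the top and 27599 in the bottom group, a ratio of 1.06 (1.05 to 1.08), and 52 of its 80 measured genes had a log2 ratio above 0, with a median of 0.08. Of the 17 genes past 1.5-fold outside the window, 3 lie on 7q. MET, the receptor of hepatocyte growth factor and a 7q gene, stood at 842, 716 and 655 CPM from top to bottom, a ratio of 1.29 (1.16 to 1.42), with barcode medians of 713, 686 and 529 CPM. Among barcodes with at most 10% mitochondrial UMIs its log2 ratio was -0.17. CAV1, the scaffold protein of caveolae and a 7q gene, stood at 303, 191 and 208 CPM, a ratio of 1.46 (1.23 to 1.74). Genes of 7p below 50 Mb had a median log2 ratio of -0.11, and AHR, the aryl hydrocarbon receptor of 7p, stood at 733, 1024 and 1033 CPM, a ratio of 0.71 (0.65 to 0.78). With each peak counted at most once the AHR log2 ratio was 0.03.

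No measured gene of MAPK feedback was called in either direction. Of 28 listed genes 4 had at least 200 UMIs, 0 were higher and 0 lower, against 0.743% and 1.18% of all other genes. ERRFI1, the receptor's inhibitor, stood at 194, 228 and 238 CPM from top to bottom, a ratio of 0.81 (0.68 to 0.98). RASA2, a RAS GTPase-activating protein, stood at 149, 145 and 168 CPM, a ratio of 0.89 (0.71 to 1.10). SPRED1, an inhibitor of RAS-MAPK signalling, stood at 125, 111 and 132 CPM (0.95, 0.74 to 1.21), and SPRED2, its relative, at 108, 106 and 101 CPM (1.07, 0.82 to 1.41). The median log2 ratio of the 4 was -0.13, against -0.02 for all other genes. The 28 genes together stood at 1213, 1180 and 1271 CPM, a ratio of 0.95 (0.88 to 1.03), so a difference of the size seen for EGFR lies outside the counting interval of the sum.

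The other 24 feedback genes had too few UMIs for a call, and their intervals are wide. MYC, a growth transcription factor, had 110, 135 and 76 UMIs, a ratio of 1.51 (1.12 to 2.06), and 16.4% of the top-group UMIs came from 1 barcode. IER3, an immediate early gene, had 54, 72 and 95 UMIs, a ratio of 0.59 (0.42 to 0.84), with 24.1% of the top-group UMIs in 1 barcode. DUSP6, the phosphatase of ERK, had 28, 25 and 25 UMIs, a ratio of 1.17 (0.66 to 2.10). FOSL1, an AP-1 subunit, had 86, 77 and 70 (1.29, 0.93 to 1.79), PHLDA1 had 90, 70 and 77 (1.22, 0.89 to 1.68) and CCND1, cyclin D1, had 79, 91 and 90 (0.92, 0.67 to 1.26). SPRY1, SPRY2 and SPRY4, the Sprouty inhibitors, had 20, 30 and 5 UMIs in the top and 32, 23 and 8 in the bottom group. For DUSP6, FOSL1 and PHLDA1 the interval holds both no difference and 1.5-fold, so these counts do not tell the 2 apart.

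Peaks near the starts of 24 of the 28 feedback genes had at least 100 counts. Of these 1 was at least 1.5-fold higher, SPRED2 at a log2 of 0.59 with a ratio interval of 0.96 to 2.37, and 4 lower, against 4.69% and 8.6% of the 6742 peaks outside the window. The units differ: a gene's value sums all its peaks near the start (1 for PHLDA1, 5 for SPRED2), and the 6742 are single peaks. The 4 lower genes were IER3 (31.8, 75.9 and 75.9 CPM from top to bottom, 0.42, 0.25 to 0.68), EPHA2 (0.54, 0.29 to 0.99), DUSP5 (0.57, 0.31 to 0.99) and PHLDA1 (0.58, 0.36 to 0.94). In RNA, IER3 and PHLDA1 both had too few UMIs for a call. The RNA ratio of IER3 also lay below 1, and that of PHLDA1 was 1.22. The median log2 ratio of the 24 was -0.19, and of all single peaks tested -0.08. Counts near gene starts were lower in the top group over all peaks outside the window as well, at 0.96 (0.95 to 0.96), and the part of that difference in the values of the 24 genes was not tested.

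**Figure D5:**
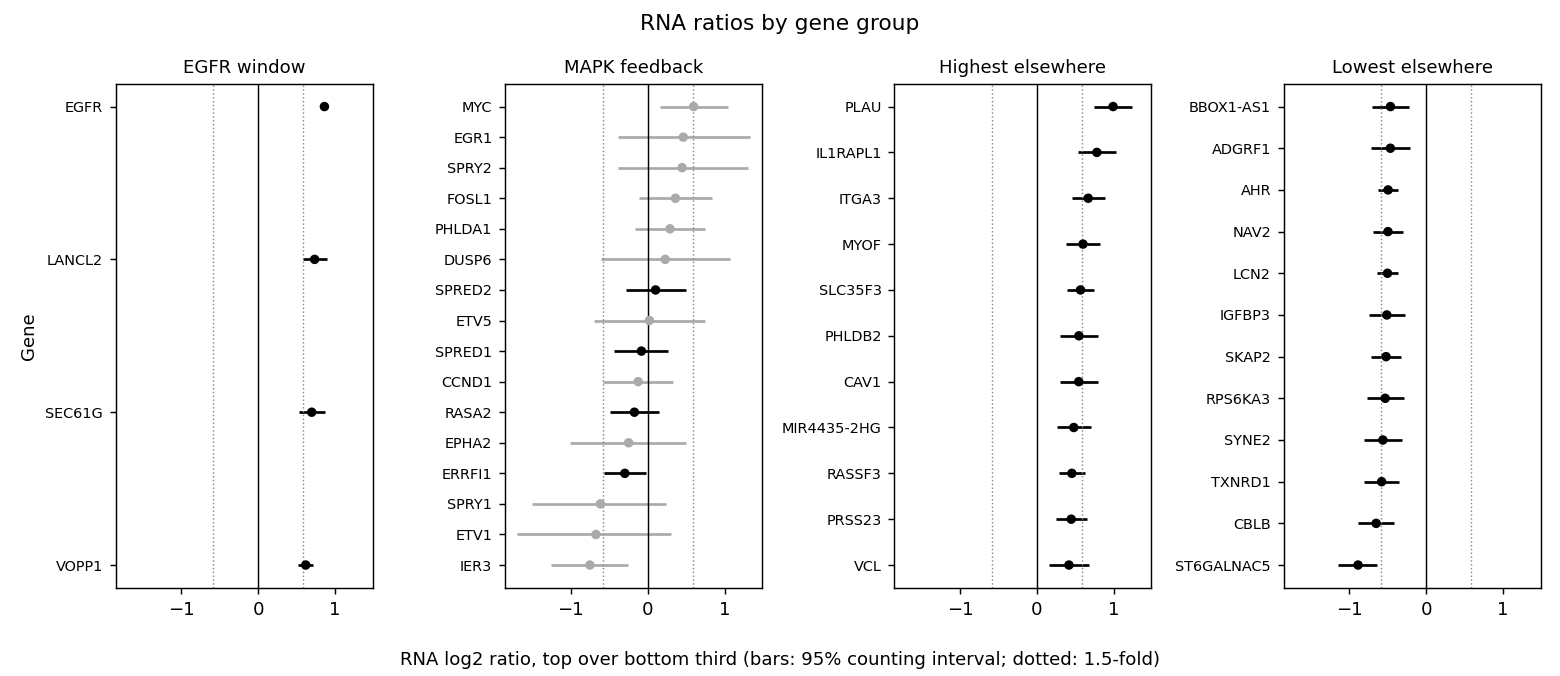
The x axis is the RNA log2 ratio of the top over the bottom group, bars are 95% counting intervals and dotted lines mark 1.5-fold; black genes have at least 200 UMIs over the top and bottom groups and grey MAPK feedback genes at least 40. The 4 window genes lie at 0.62 to 0.86, the 4 measured feedback genes at -0.30 to 0.10, and few of the genes with at least 500 UMIs elsewhere pass the lines.

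Few other genes of the receptor pathway passed 1.5-fold, where 0.743% of all 2287 genes were higher and 1.18% lower. Of 12 receptors and ligands of the EGFR family 3 were measured and none called: AREG (amphiregulin) stood at 329, 350 and 313 CPM, EREG (epiregulin) at 334, 412 and 334 CPM, and NRG1 (neuregulin) at 150, 155 and 125 CPM, with a median log2 of 0.07. Of 18 genes of receptor turnover and adaptors 6 were measured and 1 was lower. CBLB, a ubiquitin ligase that marks the activated receptor for breakdown, stood at 226, 302 and 355 CPM, a ratio of 0.64 (0.54 to 0.75), with barcode medians of 182, 219 and 313 CPM. Of 20 genes of RAS, PI3K and STAT signalling 6 were measured and none called, from -0.35 (PIK3CA) to 0.09. Of 18 other receptor tyrosine kinases MET and IGF1R were measured and neither was called.

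Outside the window, 17 of 2287 genes (0.743%) were at least 1.5-fold higher and 27 (1.18%) lower in the top group. With TMM scaling 26 were higher and 24 lower. Of the 17, 8 had under 300 UMIs over the top and bottom groups, and of the 27, 18 did. Among genes with at least 500 UMIs, PLAU, the urokinase protease, was the highest at 371, 181 and 187 CPM, a ratio of 1.99 (1.67 to 2.36), with single barcodes from 0 to 2315 CPM in the top and 0 to 1268 in the bottom group. ITGA3, an integrin subunit, stood at 426, 299 and 269 CPM, a ratio of 1.59 (1.37 to 1.84), and IL1RAPL1, a member of the interleukin 1 receptor family, at 350, 213 and 204 CPM, a ratio of 1.72 (1.45 to 2.04). MYOF (myoferlin) had a ratio of 1.51 (1.30 to 1.77), SLC35F3 1.48, PHLDB2 1.46, MIR4435-2HG 1.39, RASSF3 1.37, PRSS23 1.36 and VCL (vinculin) 1.33. CAV1, given above, is also among these 12, and 1 more gene of the 12 is not reported here. The gap between the top and the middle group differed between these genes: MYOF stood at 378 CPM in the top and 367 in the middle group, and SLC35F3 at 579 and 491.

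The lowest of the genes with at least 500 UMIs was ST6GALNAC5, a sialyltransferase, at 187, 218 and 346 CPM from top to bottom, a ratio of 0.54 (0.45 to 0.64). CBLB followed, and it was the only other of the 12 past 1.5-fold. TXNRD1, a thioredoxin reductase, had a ratio of 0.67 (0.57 to 0.78), SYNE2 0.68, RPS6KA3, a kinase downstream of ERK, 0.69 (0.58 to 0.82), SKAP2 0.70, IGFBP3 0.70, LCN2 0.71, NAV2 0.71, AHR 0.71, ADGRF1 0.72 and BBOX1-AS1 0.72. For IGFBP3 1 barcode held 28.1% of the bottom-group UMIs, and for LCN2 1 barcode held 20.5%. LCN2, CD74 and TGFBI are also genes of other lines, and the 25 such genes not used by the rule summed to 1260, 1259 and 1823 CPM, a ratio of 0.69 (0.64 to 0.74). CD74, the MHC class II invariant chain, stood at 52.2, 38.5 and 154 CPM, and 1 barcode held 34.1% of its bottom-group UMIs. Without the 12 barcodes of share under 0.5% the log2 ratios of CD74 and LCN2 were both 0.07, and without the 20% of barcodes highest in the 25 genes that of LCN2 was 0.40. Barcode medians of the sum over the 25 genes were 957, 968 and 1064 CPM, and the 8 genes of the rule had 21, 28 and 27 UMIs. Ranking within strata of that sum gave an EGFR log2 of 0.87 with 4 window genes past 1.5-fold. Leaving out the 20% of barcodes highest in the 25 genes gave 0.79, and leaving out those with a UMI of the 8 genes gave 0.76, each with 2 window genes past 1.5-fold.

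The other gene groups held few calls, against 0.743% higher and 1.18% lower over all 2287 genes. Of 22 epithelial genes 14 were measured and none called, with KRT8 at 1.23 (1.01 to 1.501), KRT18 at 1.21 (1.06 to 1.39), ELF3 at 0.71 (0.57 to 0.89) and CLDN3 at 0.68 (0.52 to 0.89). Of 15 lung-lineage genes 1 was measured, SFTA3, and it was lower at 117, 172 and 184 CPM, a ratio of 0.63 (0.50 to 0.80). Of 18 mesenchymal genes FN1 (0.74, 0.60 to 0.92) and TGFBI (0.79, 0.69 to 0.91) were measured and not called. Of 18 NRF2 targets 5 were measured and 1 was lower, the transporter ABCC1 at 0.66 (0.51 to 0.85), and TXNRD1 stood just short of the size. None of the 20 listed interferon-stimulated genes and none of the 15 listed p53 targets had 200 UMIs. The 20 together stood at 666, 484 and 533 CPM, a ratio of 1.25 (1.12 to 1.40). For the 15 together the ratio was 0.98 (0.82 to 1.17). Genes off these lists were not sorted into these groups. Of 60 genes of S phase and of G2 and M phase 7 were measured and none called, from -0.01 to 0.39 on the log2 scale, with BRIP1, a helicase of DNA repair, at 1.31 (0.99 to 1.73) and CENPF, a kinetochore protein, at 1.16 (0.96 to 1.41). Of 16 hypoxia and glycolysis genes ENO1 and PGK1 were measured, at 1.07 and 1.00. Of the AP-1 and stress list HSPA8 was measured, at 0.87 (0.67 to 1.12).

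The most abundant gene groups differed by small amounts. All 24 ribosomal protein genes were measured and none called, with a median log2 ratio of 0.09 and 17 above 0. The 13 mitochondrial genes had a median log2 ratio of 0.02. NEAT1, a nuclear RNA, stood at 5373, 4381 and 4060 CPM, a ratio of 1.32 (1.27 to 1.38), and MALAT1 at 47165, 47260 and 43772 CPM, a ratio of 1.08 (1.06 to 1.09). Of the 113 genes with at least 2000 UMIs over the 220 barcodes, those outside the window whose CPM followed the share most closely were RPL26 (rho 0.224), RPS7 (0.192) and RPL10 (0.184), all ribosomal. Those values lie below LANCL2 (0.357) and VOPP1 (0.346). SEC61G (0.257) had 1868 UMIs, under that minimum, and genes of its depth outside the window were not ranked. Of the 4 genes by which the barcodes were chosen, 3 did not differ at this size: GRIA4 stood at 150, 201 and 147 CPM, LINC01980 at 138, 132 and 137, and LINC01456 at 115, 98.0 and 138. PMCH, the precursor of melanin-concentrating hormone, had 86, 62 and 34 UMIs, a ratio of 2.65 (1.76 to 4.06). It was seen in 4, 9 and 6 barcodes, 1 barcode held 48.8% of its top-group UMIs, and it had too few UMIs for a call.

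Outside the window, 316 of 6742 peaks with at least 100 counts (4.69%) were at least 1.5-fold higher and 580 (8.6%) lower. With a minimum of 200 counts these numbers fell to 32 and 65. Peaks near the minimum hold few fragments, and the part of the calls that counting error gives was not tested. Of the higher peaks 12.7% lie on 7q, of the lower peaks 1.03%, and of all tested peaks 3.38%. Gene starts lay within 2000 bases of 64.6% of the higher, 83.1% of the lower and 81.6% of the tested peaks. Among peaks with at least 200 counts the highest ratio was that of a peak 5712 bases from the ADTRP start (chr6:11772236-11773091), at 192, 152 and 75.9 CPM from top to bottom, a ratio of 2.53 (1.86 to 3.48). A peak on the same chromosome (chr6:11652893-11653803) stood at 133, 90.5 and 64.4 CPM. These 2 peaks were 10.5- and 10.3-fold higher in the 220 barcodes than in the others. Peaks at the ARHGEF25 start (chr12:57611023-57611920, 1.99) and the ELMO2 start (chr20:46406090-46407000, 1.94) were also among the highest 5. The lowest 5 had ratios from 0.51 to 0.54. The lowest of all (chr8:81001689-81002578) stood at 59.7, 123 and 118 CPM, a ratio of 0.51 (0.35 to 0.73), and was 18.8-fold higher in the 220 barcodes than in the others. The other 4 lie at the starts of B3GNTL1, EMC9, CHPF and KCTD9.

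Several 1 Mb bins other than the window that were high in the HCC827-like barcodes were higher in the top group, unlike the chromosome 8 peak just described. Outside 50 to 60 Mb of chromosome 7, the bins of 1 Mb with the largest ratio of the 220 barcodes to the others included 2 adjoining bins of chromosome 8, at 6.35 and 3.98, and the bins starting at 11 Mb of chromosome 6, at 5.25, and 17 Mb of chromosome 21, at 4.12. Top over bottom, in that order, they stood at 1.25 (1.11 to 1.40), 1.12 (1.05 to 1.19), 1.42 (1.34 to 1.503) and 1.20 (1.09 to 1.33). All 4 intervals lie above 1 and below the EGFR RNA ratio, but they do not cover the spread between bins. The log2 ratios of the 4 bins were 0.32, 0.16, 0.50 and 0.26, and over 1173 bins with at least 1000 counts the SD was 0.16. In 6 other bins the 220 barcodes stood at least 4-fold below the others, and these bins held 79.4 (61.0 to 102), 60.8 (46.0 to 78.9) and 99.4 (78.6 to 124) CPM in the top, middle and bottom group, against 477 in the other barcodes. Those intervals overlap between the top and bottom groups.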

How the data were processed

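RNA and ATAC were measured in the same barcodes, with 1 library of each kind. Per the submitters' processing notes and the file headers, the authors used Cell Ranger ARC 2.0.0 on GRCh38. The deposited gene counts are whole UMIs and the deposited peak counts are whole numbers, of which 83.3% of non-zero entries are even. A fragment thus usually adds 2, and intervals of peaks use counts divided by 2. The other deposited values, the starts and ends of genes and peaks per the file headers, served as positions. How cells and peaks were called is not given in the sources used here.

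Members and gene lists were chosen with earlier results of these data known. Counts were summed per group and divided by its total UMIs, or by its peak counts outside the window. The groups held 1053172, 1193495 and 1102247 UMIs from top to bottom. Ratios have exact binomial and sums exact Poisson intervals at 95% (scipy 1.17.1). A gene counted as measured from 200 UMIs over the top and bottom groups and a peak from 100 counts, and list members without a matching symbol were left out.

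Named genes are every window and feedback gene with at least 200 UMIs, the 12 highest and 12 lowest of the others with at least 500, and in each list up to 4 members of largest log2 ratio. Others were chosen after their values were seen: feedback, window and neighbouring genes under the minimum, and genes of the label check. Scrublet (scanpy 1.11.5) marked the 35 highest scores of 2103 barcodes, 2 of them members, both in the bottom group, and these stayed in. The automatic threshold called 107. Alternatives used other totals, TMM factors (edgeR 4.0.16), minimums, folds, shares, strata and left-out members. The steps were run on simulated sums drawn with counting error alone. That run holds no spread between barcodes, so it says nothing about how the intervals fare with such spread. Some named items are not reported here.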

Additional observations from a re-analysis of the deposited data

How the results depend on the processing

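No paired analysis was possible because there is 1 RNA and 1 ATAC library, and no replicate to leave out. Log2 ratios compare the top with the bottom group. The EGFR ratio (0.86) stayed above 0 in all 19 settings, and no median, EGFR or chromosome 7 ratio turned its direction. Of 10 genes followed singly, MET turned in 1 setting (-0.17, at most 10% mitochondrial UMIs), AHR in 1 (0.03, each peak counted once), CD74 in 1 (0.07, without shares under 0.5%) and LCN2 in 2 (0.07 in that setting, 0.40 without the 20% of barcodes highest in other-line genes). The median of the feedback genes (-0.13) ran from -0.39 to -0.02, and it has no value with 500 UMIs as the minimum or at most 10% mitochondrial UMIs, where no such gene was measured. With the outer 2 of 4 groups, EGFR was 1.21, 7q 0.28, and 43 other genes were lower. With 2 groups, EGFR was 0.64, 7q 0.17, 7p -0.0515, 1 window gene and 1 feedback gene were higher, and 592 peaks were higher. With each peak counted once, EGFR was 0.34, 7q 0.11, 7p -0.0472, 0 window genes were higher, 45 other genes lower, 817 peaks higher and 894 lower. With window peaks away from gene starts, EGFR was 1.12, 7q 0.22, and 46 other genes were higher and 61 lower. With every second window peak, 2 window genes passed. Ranked within 5 strata of total UMIs, EGFR was 0.96, with 26 other genes higher and 45 lower; of mitochondrial share, 0.93; and of the share near gene starts, 1.05, with 27 higher. Without barcodes holding a UMI of the 8 other-line genes, EGFR was 0.76, 7q 0.33, 2 window genes passed, and 149 peaks were higher and 379 lower. With at most 10% mitochondrial UMIs, EGFR was 1.48, 7q 0.16, 7p -0.24, 17 other genes of 199 tested were lower, and 47 peaks were higher and 78 lower.

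With TMM factors, 26 other genes were higher. With the mean of CPM over barcodes, 2 window genes passed, and 33 other genes were higher and 51 lower. With a minimum of 100 UMIs, 1 feedback gene was higher and 1 lower, and 88 other genes were higher and 118 lower. With a minimum of 500, 5 were higher and 2 lower. At 2-fold, 0 window genes passed, 2 other genes were higher and 3 lower, and 42 peaks were higher and 69 lower. With a minimum of 200 peak counts, 32 peaks were higher and 65 lower. The settings that follow were chosen after seeing the data, as were those for chromosome 7, and those for peaks other than the fold, the total and the minimum. Without shares under 0.1%, EGFR was 0.81 and 7q 0.22. Without shares under 0.5%, EGFR was 0.69, 7q 0.22, 7p -0.0451, and 2 window genes passed. Without the 20% of barcodes highest in other-line genes, EGFR was 0.79, 7p -0.0818, 2 window genes passed and 156 peaks were higher. Why values moved was not tested.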

Other observations

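Barcodes that met the marker rule but missed 1 limit had like values. The 85 with over 20% mitochondrial UMIs had a median window share of 1.30% and a median of 5830 CPM of EGFR. The 9 with over 40000 UMIs had 1.37% and 6550 CPM, the 72 with under 5000 peak counts 1.16% and 6316 CPM, and the 5 with under 3000 UMIs 1.10% and 6443 CPM. These medians lie between those of the bottom and top groups.

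Of the 1883 passing barcodes outside the rule, 112 had a window share over 0.5%. In 31 of them the 4 marker genes had under 2 UMIs and the 8 genes of other lines had none, with a median share of 1.48% and a median of 8794 CPM of EGFR. The other 81 held a UMI of another line's gene, with 1.13% and 6637 CPM. These barcodes were picked for their window share, so its level is set by the choice.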
